A study of Mus musculus with 6 samples.

Results

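Transcripts of CC chemokines were measured in Cd11b-enriched cells of the mouse heart, with Egfr, which encodes the epidermal growth factor receptor, either intact or deleted in the myeloid lineage. The 10 genes, Ccl2, Ccl3, Ccl4, Ccl5, Ccl6, Ccl7, Ccl8, Ccl9, Ccl12 and Ccl24, were taken by symbol from the 55487 genes of the count tables. All 10 passed the filter on low counts. Each library came from 1 pool of 5 or 6 C57BL/6 hearts, digested with collagenase and hyaluronidase, cleared of myocytes and debris and enriched on beads against Cd11b, the integrin chain that marks myeloid cells. The 3 control pools are labelled Egfr f/f with the genotype WT, so they carry the floxed alleles with no deletion stated. The 3 deleted pools are labelled Egfr mKO, a myeloid-specific EGFR -/- genotype, and are called KO. The sources used here give no treatment, age, sex or driver of the deletion.

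CC chemokines are small secreted proteins with adjacent cysteines near the amino terminus that bind G protein-coupled receptors on leukocytes and direct where these cells move. Ligands of Ccr2 draw monocytes out of the bone marrow and into injured heart, while other CC ligands act on neutrophils, eosinophils, macrophages and T cells. Macrophages are a main source in the heart. Several of these genes, Ccl2, Ccl3, Ccl4 and Ccl7 among them, are known to be switched on quickly by NF-kB and by stress, tissue digestion included.

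Depth was 17780707 to 27485129 reads in genes per library, and the scarcest chemokine count was 201 reads, for Ccl8 in WT replicate 2. Egfr was at 54.7, 43.0 and 44.7 CPM (gene counts scaled to a common library size and composition) in WT and at 18.5, 15.9 and 17.4 CPM in KO. Lyz2, the lysozyme gene of myeloid cells, was at 4074 to 6700 CPM in WT and at 17.4 to 19.3 CPM in KO. Egfr and Lyz2 were both lower in every KO pool, so their parts in any chemokine difference cannot be told apart. Markers of the labelled cells were present in every pool, with Itgam, which encodes Cd11b, at 84.4 to 176 CPM and Csf1r at 1718 to 3199 CPM. Markers of other heart cells were present too. All 12 endothelial markers had negative log2 fold changes (summed level 2502 to 4173 CPM in WT, 1407 to 1838 CPM in KO, none at 0), and so did all 12 fibroblast markers (4636 to 15074 CPM in WT, 3994 to 5499 CPM in KO, none at 0). No gene of either list passed in edgeR over the 6 pools, while DESeq2 called 12 endothelial and 5 fibroblast markers lower (3.97% of all genes) and edgeR without WT replicate 1 called 10 and 12 lower (5.97%). Every KO pool was below every WT pool for 12 of 12 endothelial markers and 1 of 12 fibroblast markers, against 10.1% of all genes. WT replicate 1, at 4636 CPM, had the lowest fibroblast sum in WT, inside the KO range. The part of these markers in the chemokine values was not tested. WT replicate 1 stood apart: its counts were nearer to those of the KO libraries (37.7 to 53.0 as chi-square divided by its degrees of freedom) than to those of WT replicates 2 and 3 (69.8 and 76.5). It also held the most erythroid RNA, with a summed marker level of 1878 CPM against 36.2 to 142 CPM in the other pools. WT replicate 1 and KO replicate 1 also had Y-linked transcripts (230 and 223 CPM in all for Ddx3y, Eif2s3y, Kdm5d and Uty), against at most 1.01 CPM in the other 4 pools. The sex-linked transcript Xist ran the other way, at 0.27 CPM in WT replicate 1 and 0.15 CPM in KO replicate 1. In the other 4 pools Xist was at 344 to 602 CPM. In bulk RNA, fewer cells of a type and less RNA per cell cannot be told apart.

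Of the 10 genes, 9 lie on chromosome 11 of GRCm38 in 2 groups, 65.1 Mb or more from Egfr on the same chromosome. Ccl2 (82035571 to 82037453), Ccl7 (82045712 to 82047525), Ccl12 (82101845 to 82103400) and Ccl8 (82115185 to 82116799) span 81 kb on the plus strand. Ccl5 (83525778 to 83530518), Ccl9 (83572919 to 83578636), Ccl6 (83587882 to 83593087) and Ccl3 (83647844 to 83649355) lie on the minus strand and Ccl4 (83662584 to 83664683) on the plus strand, within 139 kb. Ccl24 is on chromosome 5 (135569937 to 135573049, minus strand). The coding sequences were 38.1% to 66.7% identical over the 45 pairs, highest for Ccl3 and Ccl4 (66.7%) and for Ccl6 and Ccl9 (64.8%). These are shares of the whole alignment with gaps counted, so unequal coding lengths (273 bases for Ccl5 to 444 for Ccl2) lower them. The longest stretch of identical bases between any pair of transcripts was 25 (Ccl6 and Ccl9, after the coding part). No member shared exonic sequence with an annotated overlapping gene.

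RefSeq start regions on GRCm38.p6 were at hand for 5 members (Ccl3, Ccl6, Ccl8, Ccl9 and Ccl12). The 250 bases before the start are shown for Ccl6 and Ccl9, whose levels moved most alike over the pools, and for Ccl8, the one member whose groups did not overlap. They lie at chr11:83593088-83593337 (minus strand), chr11:83578637-83578886 (minus strand) and chr11:82114935-82115184 (plus strand). Capitals mark matches on either strand to the motif of NF-kB, to AP-1 (TGANTCA) or to the TATA box (TATAAA), the last added after the sequences were seen.
Ccl6: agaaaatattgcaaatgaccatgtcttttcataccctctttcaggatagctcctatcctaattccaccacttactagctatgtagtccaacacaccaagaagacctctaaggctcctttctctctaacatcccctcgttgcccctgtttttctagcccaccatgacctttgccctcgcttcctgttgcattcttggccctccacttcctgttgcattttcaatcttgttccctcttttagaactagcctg
Ccl9: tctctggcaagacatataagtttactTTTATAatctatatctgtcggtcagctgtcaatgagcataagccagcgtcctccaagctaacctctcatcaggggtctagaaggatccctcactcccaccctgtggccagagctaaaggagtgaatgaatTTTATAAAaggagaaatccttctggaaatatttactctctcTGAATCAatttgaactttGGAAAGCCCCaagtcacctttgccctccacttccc
Ccl8: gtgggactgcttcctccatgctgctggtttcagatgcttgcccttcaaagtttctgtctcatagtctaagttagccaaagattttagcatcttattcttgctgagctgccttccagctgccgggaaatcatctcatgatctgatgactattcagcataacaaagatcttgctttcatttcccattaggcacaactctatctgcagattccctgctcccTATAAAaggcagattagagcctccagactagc
Ccl9 held an AP-1 match at -53 to -47 and an NF-kB match at -35 to -26 from the start, and these did not overlap. Among all 32851 start regions of that length, 6.75% held the AP-1 motif and 7.25% the NF-kB motif. Ccl8 held a TATA match at -32 to -27 and Ccl12 one at -31 to -26, and 12.4% of all start regions held one. In Ccl9 the TATA matches lay farther out, at -92 to -87 and, on the other strand, at -94 to -89, overlapping the first, and at -224 to -219. The NF-kB match was on the other strand. The windows of Ccl3 and Ccl6 held none of these letters, and no member had a match to the motifs of STAT6, C/EBP (TTGCNNAA) or the interferon-stimulated response element, which 5.85%, 9.56% and 2.98% of start regions held. The Ccl6 and Ccl9 windows shared a stretch of 13 identical bases, against 7 to 9 for the other pairs among the 5.

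Levels between genes were compared as CPM per kilobase of annotated exon, the mean over pools with the lowest and highest. In WT, Ccl7 (366, 269 to 499), Ccl2 (347, 245 to 458) and Ccl6 (301, 218 to 464) came first. Ccl3 (255, 176 to 356) and Ccl4 (248, 187 to 312) followed, then Ccl9 (137, 102 to 196) and Ccl12 (127, 87.7 to 148). Ccl24 (44.1, 28.9 to 65.8), Ccl8 (33.4, 20.5 to 47.5) and Ccl5 (13.1, 12.1 to 13.8) were lowest. The ranges of neighbours in this order overlapped over the pools except for Ccl12 and Ccl24, and Ccl8 and Ccl5. Overlapping ranges do not show that the order differed within a pool. In KO, Ccl6 came first at 411 (404 to 418), above Ccl7 at 355 (324 to 372) and Ccl2 at 348 (297 to 377) in every pool. Ccl4 (253), Ccl3 (244), Ccl9 (180.3), Ccl12 (165), Ccl24 (66.9), Ccl8 (60.4) and Ccl5 (17.3) followed. Neighbours that did not overlap in KO were Ccl6 and Ccl7, Ccl3 and Ccl9 (lowest 190.9 against highest 190.1), Ccl12 and Ccl24, and Ccl8 and Ccl5. With the length of the main coding transcript in place of all exons, Ccl2 led in WT (485) and Ccl6 in KO (512), and their KO ranges overlapped (416 to 528 and 503 to 521).

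With edgeR's quasi-likelihood test over all 6 pools, none of the 10 chemokines passed the threshold (Benjamini-Hochberg adjusted p below 0.05), where 0.0127% of the 15707 genes tested did. DESeq2 (5% of all genes called) and limma-voom (0.00637%) called none of the 10 either, and at an unadjusted p below 0.05 edgeR had 1 of them (Ccl8), against 15.3% of all genes. Log2 fold changes of KO against WT were positive for 8 of 10 with a median of 0.38, while 50.8% of all genes were positive with a median of 0.007. Adjusted p-values below are from edgeR, and means are given ± SD over 3 pools.

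**Figure D1:**
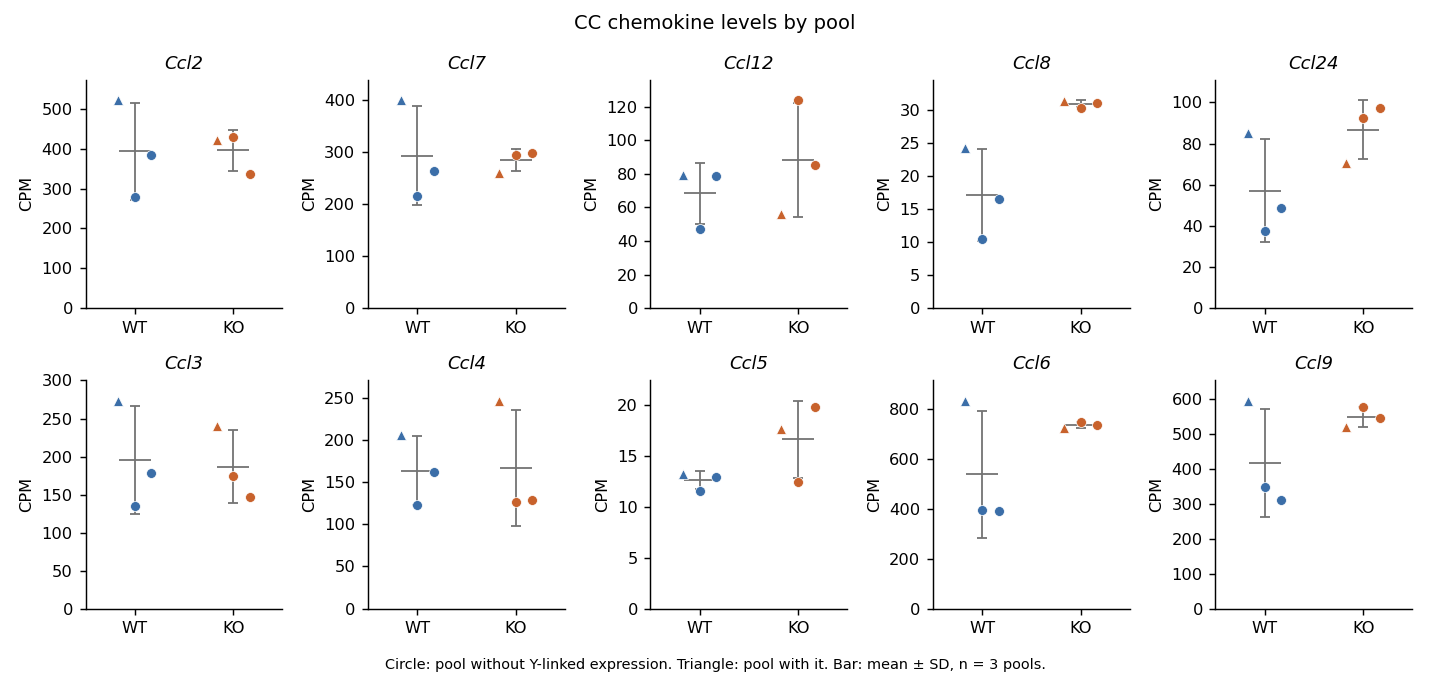
Level of each CC chemokine in CPM (vertical axis from 0) in the 3 WT pools (blue) and 3 KO pools (orange), with mean and SD. Triangles are the pools with Y-linked expression. Ccl8 was the one gene with every KO pool (30.3 to 31.3 CPM) above every WT pool (10.5 to 24.3 CPM), and WT replicate 1 was the highest WT pool for all 10.

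The Ccr2 ligands Ccl2 and Ccl7 differed between groups by less than their SE. Ccl2, the classical monocyte attractant, was at 522, 279 and 383 CPM in WT and at 422, 429 and 338 CPM in KO. The KO pools lay inside the WT range, with a log2 fold change of 0.01 (SE 0.23, adjusted p = 0.991). Ccl7, which also draws monocytes, was at 399, 215 and 264 CPM in WT and at 260, 294 and 298 CPM in KO. Again the KO pools fell between the lowest and highest WT pool (-0.04, SE 0.22, adjusted p = 0.946). The direction of both flipped among settings. Ccl12, the mouse gene for a further Ccr2 ligand, was at 79.3, 47.1 and 78.7 CPM in WT and at 56.3, 124 and 85.1 CPM in KO. The KO pools spread 2.20-fold, with KO replicate 1 below WT replicates 1 and 3 and KO replicate 2 above every WT pool (0.37, SE 0.30, adjusted p = 0.605), and without KO replicate 2 the log2 fold change was 0.05.

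Ccl8, a relative of Ccl2 that signals through Ccr8 in the mouse, had the largest change of the 10. It was at 24.3, 10.5 and 16.4 CPM in WT (17.1 ± 6.92) and at 31.3, 30.3 and 31.0 CPM in KO (30.9 ± 0.53). The groups did not overlap, and the KO pools lay within 1.03-fold of each other while the WT pools spread 2.32-fold. Every KO pool was above every WT pool for 9.59% of all genes tested. The log2 fold change was 0.85 (SE 0.27, adjusted p = 0.232). It passed without the filter on low counts (adjusted p = 0.0376, where 0.479% of genes were called higher) and without WT replicate 1 (1.20, adjusted p = 0.0191, where 2.33% of genes were called higher). DESeq2 gave an adjusted p of 0.0549 for it, and over the fits that each left out 1 pool its log2 fold change ran from 0.59 to 1.20.

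Ccl24, an eotaxin that attracts eosinophils through Ccr3, was at 85.3, 37.5 and 48.6 CPM in WT and at 70.4, 92.2 and 97.3 CPM in KO. WT replicate 1 lay above KO replicate 1, so the groups overlapped (0.60, SE 0.29, adjusted p = 0.367). Markers of eosinophils themselves were near the floor, with 4 of 6 under 1 CPM, Epx at 0 in every pool, and a summed level of 9.73 to 13.2 CPM in WT and 11.4 to 17.4 CPM in KO.

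Ccl3 and Ccl4 are inflammatory chemokines of activated macrophages, and Ccl3 is a ligand of Ccr1. Ccl3 was at 273, 135 and 178 CPM in WT and at 240.3, 174 and 146 CPM in KO. The groups overlapped fully (-0.06, SE 0.28, adjusted p = 0.938). Ccl4 was at 206, 123 and 162 CPM in WT and at 246, 126 and 129 CPM in KO, with KO replicate 1 above all other pools (0.03, SE 0.29, adjusted p = 0.973). Both genes were highest among KO pools in KO replicate 1, and without that pool their log2 fold changes were -0.28 and -0.36, neither past the threshold, which 0.0062% of genes passed. Summed neutrophil markers were high in the same pools, at 2712 CPM in WT replicate 1 and 3332 CPM in KO replicate 1. The other 4 pools had 736 to 1353 CPM, with none of 13 markers at 0. Among them Ltf, Camp and Ngp were low in KO replicate 1, at 21.0, 3.93 and 29.9 CPM. In WT replicate 2 these 3 were at 91.6, 17.5 and 93.0 CPM. The part of the neutrophil markers in the result was not tested.

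Ccl5, made by T cells and NK cells as well as macrophages, was at 13.2, 11.6 and 12.9 CPM in WT and at 17.6, 12.4 and 19.7 CPM in KO. KO replicate 2 lay between WT pools (0.40, SE 0.19, adjusted p = 0.369). T cell markers moved with single pools: their summed level was 847 CPM in WT replicate 2, 49.9 and 83.2 CPM in the other WT pools, and 81.7 to 316 CPM in KO, with none of 10 at 0. Ccl5 was lowest in WT replicate 2, the pool with most T cell RNA. Summed NK cell markers were also highest in that pool, at 46.6 CPM. They were at 32.9 and 27.8 CPM in WT replicates 1 and 3 and at 19.5 to 37.5 CPM in KO. The part of T cells and NK cells in the Ccl5 values was not tested.

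Ccl6 and Ccl9 are Ccr1 ligands that mouse macrophages make at rest. Ccl6 was at 833, 394 and 391 CPM in WT and at 724, 750.3 and 737 CPM in KO. The 3 KO pools were within 1.04-fold of each other and all above WT replicates 2 and 3, but below WT replicate 1 (0.45, SE 0.30, adjusted p = 0.511). Ccl9 was at 595, 348 and 312 CPM in WT and at 522, 579 and 546 CPM in KO, in the same order of groups (0.39, SE 0.24, adjusted p = 0.487). Without WT replicate 1, Ccl6 (0.91, adjusted p = 0.0148), Ccl9 (0.74, adjusted p = 0.0214), Ccl24 (1.01, adjusted p = 0.0234) and Ccl8 passed, all higher in KO. Of all genes, 2.33% were called higher there and 8.3% passed in either direction. That fit leaves no WT pool with Y-linked expression, while KO replicate 1 has it.

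**Figure D2:**
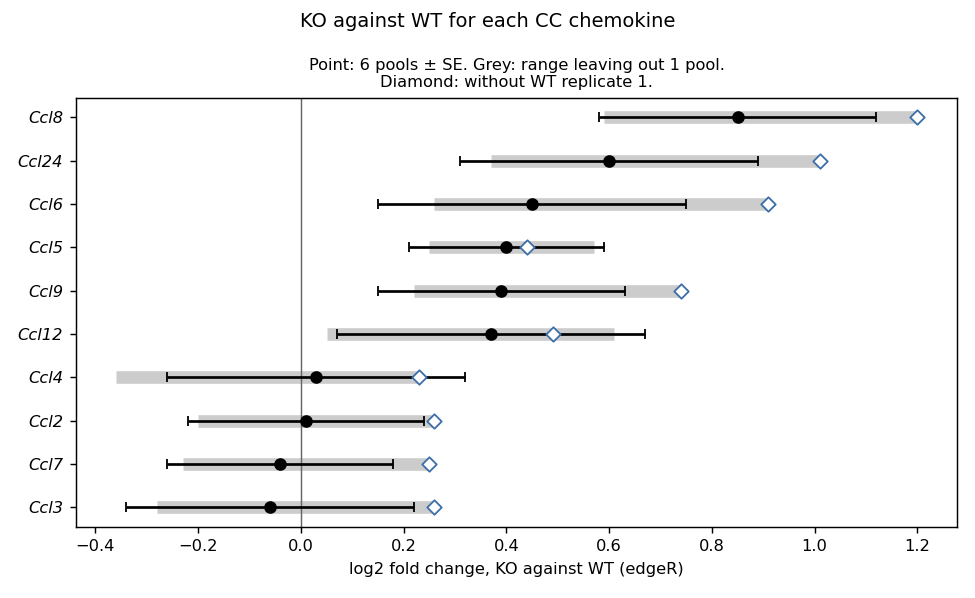
Log2 fold change of KO against WT (horizontal axis) for the 10 chemokines, with SE bars, over 6 pools. Grey bands span the 6 fits that each left out 1 pool, and diamonds are the fit without WT replicate 1, which reached 1.20 for Ccl8 and 0.91 for Ccl6.

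The members fell into recurring patterns over the pools. WT replicate 1 was the highest WT pool for all 10 genes, and exceeded the mean of the other WT pools 1.08-fold (Ccl5) to 2.12-fold (Ccl6). WT replicate 2 was the lowest of the 6 pools for 8 genes and WT replicate 3 for Ccl6 and Ccl9. Likeness was measured as the root mean square difference of log2 CPM, each gene centred on its mean over the 6 pools. Ccl6 and Ccl9 were the closest of 45 pairs (0.10), followed by Ccl2 with Ccl3 and Ccl2 with Ccl7 (0.16 each), Ccl3 with Ccl4 (0.17) and Ccl6 with Ccl24 (0.19), against a median of 0.39 over all pairs. Pairs of neighbours on the chromosome were among both the closest and the more distant ones: Ccl8 and Ccl12, neighbours among the members, differed by 0.48. The summed resident macrophage markers were likewise lowest in WT replicates 2 and 3, at 18941, 10570 and 12982 CPM in WT and 18443 to 19516 CPM in KO. All 18 had positive log2 fold changes (median 0.42, none at 0), and every KO pool was above every WT pool for 5 of them, where 9.59% of all genes were so. None passed in edgeR, DESeq2 or limma-voom over the 6 pools, but 9 passed as higher without WT replicate 1 (2.33% of all genes) and 2 in the 4 pools without Y-linked expression (0.4%), fits in which chemokines passed too.

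**Figure D3:**
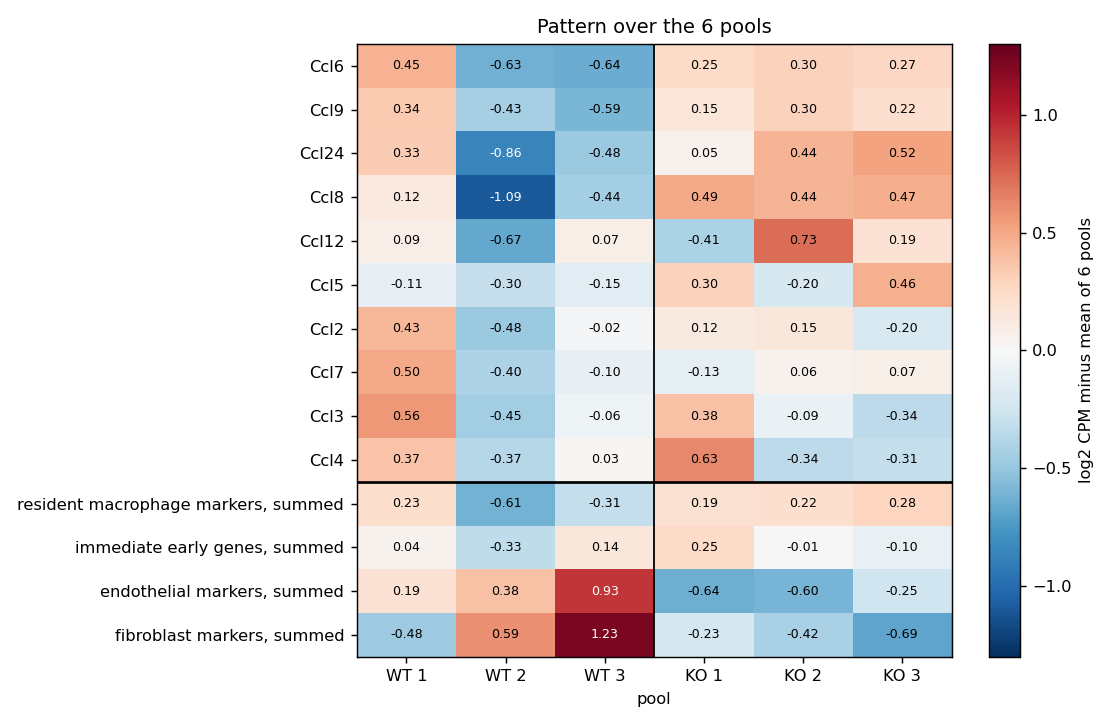
Log2 CPM minus the mean of the 6 pools (colour and printed value) for each chemokine and, below the line, for summed marker lists, with pools in columns. Ccl6, Ccl9, Ccl24 and Ccl8 were low in WT replicates 2 and 3 (-1.09 to -0.43) and positive in the other 4 pools, as were the resident macrophage markers.

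Outside the family, the genes closest to each member were searched among 10762 named genes with a mean of at least 5 CPM. For Ccl6 these were the class II antigen presentation genes H2-Eb1 (0.093), H2-Ab1 (0.099) and Cd74 (0.10). Ccl9 was nearest to Klra2 (0.053), Apobec1 (0.062) and Irf5 (0.075). For Ccl24 they were Pf4 (0.087), the tissue macrophage receptor Timd4 (0.10) and Slamf8 (0.11), and for Ccl8 Asgr2 (0.10), the leukotriene synthase Ltc4s (0.11) and C4b (0.16). Ccl2 was nearest to Myo7a (0.086), Wdr81 (0.090) and the glutamine synthetase Glul (0.097), and Ccl7 to Lifr (0.081), Zfp992 (0.081) and Ube2l6 (0.083). Ccl3 was nearest to the DNA sensor Tlr9 (0.11), Ppp1r3d (0.12) and Glul (0.14), and Ccl4 to Selenon (0.098), the metallothionein Mt2 (0.11) and Plk3 (0.13). Ccl5 had Coq10a, Ndufb1-ps and Wwox (all 0.12), and Ccl12 had no gene nearer than Iah1 (0.17).

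The pools with Y-linked expression were WT replicate 1 and KO replicate 1, 1 in each group, so a fit with this difference as a covariate could be made. It called none of the 10 and 0.0191% of all genes (Ccl8 0.91, SE 0.23, adjusted p = 0.166, Ccl24 0.67, SE 0.29, adjusted p = 0.307, Ccl6 0.55, SE 0.24, adjusted p = 0.31). Among the 4 pools without Y-linked expression, Ccl6 (0.89, SE 0.14, adjusted p = 0.042) and Ccl24 (1.11, SE 0.16, adjusted p = 0.0407) passed as higher in KO, where 0.4% of 15748 genes did. Ccl8 (1.16, SE 0.22, adjusted p = 0.0583) and Ccl9 (0.73, SE 0.15, adjusted p = 0.063) did not pass. In these 4 pools every KO value was above every WT value for Ccl6, Ccl7, Ccl8, Ccl9, Ccl12 and Ccl24, as for 25.1% of all genes. In the pair of pools with Y-linked expression, which has no replicate, the log2 ratio of KO to WT was -0.20 for Ccl6, -0.28 for Ccl24, -0.19 for Ccl9, -0.62 for Ccl7, -0.50 for Ccl12 and 0.37 for Ccl8. The difference between these effects rests on 1 library per group in the pools with Y-linked expression, and it did not pass in edgeR for any member. It was -1.41 for Ccl24 (SE 0.29, unadjusted p = 0.00218, adjusted p = 0.601) and -1.12 for Ccl6 (SE 0.27, unadjusted p = 0.00494, adjusted p = 0.611). The edgeR values were -0.96 for Ccl9 (adjusted p = 0.704), -0.93 for Ccl7 (adjusted p = 0.722) and -1.23 for Ccl12 (adjusted p = 0.877). These 5 of the 10 members were under 0.05 before adjustment, as were 5.52% of all genes, and 0 genes passed after it.

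To set the chemokines against the amount of macrophage RNA, each was divided by the summed CPM of the 18 resident macrophage markers in the same pool, a step chosen after seeing the data. The summed markers were 0.46 higher in KO on the mean log2 scale, so the division lowered each gene's difference by that amount. Per 1000 marker reads, Ccl7 was at 21.1, 20.4 and 20.3 in WT and at 14.1, 15.7 and 15.3 in KO. Ccl2 was at 27.5, 26.4 and 29.5 in WT and at 22.9, 22.8 and 17.3 in KO. Every KO pool was below every WT pool for both, as for 19.8% of all genes (exact permutation p = 0.1 for each, two-sided, the smallest that 3 against 3 pools can give). Ccl8 was at 1.28, 0.991 and 1.27 in WT and at 1.70, 1.61 and 1.59 in KO. Here all KO pools exceeded all WT pools, as for 0.891% of all genes (exact permutation p = 0.1). On this scale the mean log2 difference was 0.09 for Ccl6 (SD 0.27 in WT and 0.04 in KO). It was -0.01 for Ccl9 (SD 0.25 and 0.07) and 0.21 for Ccl24 (SD 0.18 and 0.22). The groups overlapped for each of these genes. Against each of the 18 markers alone, every KO pool was below every WT pool for 14 markers with Ccl7, 13 with Ccl2 and 9 with Ccl3. Every KO pool was above for 15 markers with Ccl8, 2 with Ccl6, 2 with Ccl9 and 1 with Ccl24. Ccl4, Ccl5 and Ccl12 had 0 in either direction. All 18 markers had positive log2 fold changes, so these counts are not separate tests. No share over all genes was computed for them, so whether such counts are unusual cannot be told.

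**Figure D4:**
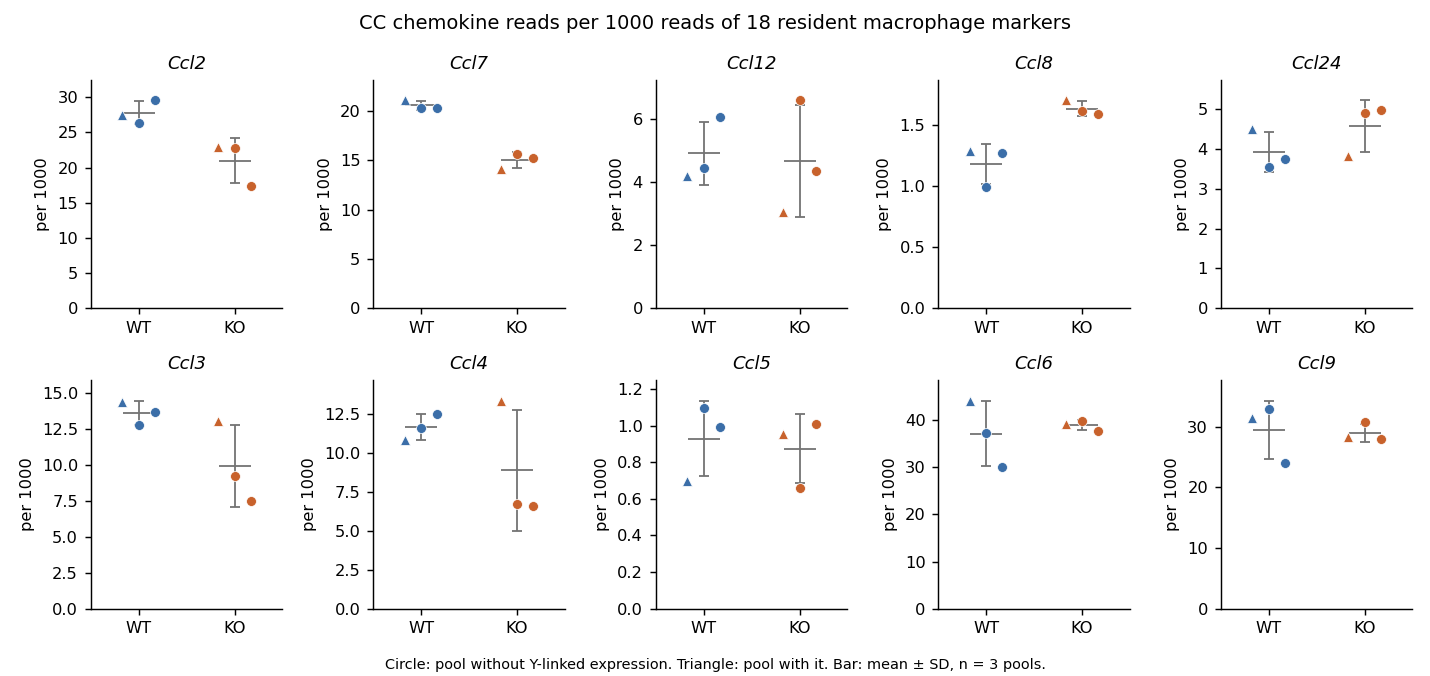
Each chemokine per 1000 reads of the 18 resident macrophage markers (vertical axis from 0) in WT (blue) and KO (orange) pools, with mean and SD. Ccl7 was at 20.3 to 21.1 in WT and 14.1 to 15.7 in KO, and Ccl8 at 0.991 to 1.28 in WT and 1.59 to 1.70 in KO.

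Of 11 other CC chemokines, 5 were tested and none passed in edgeR, DESeq2 or limma-voom, with 2 at an unadjusted p below 0.05 in edgeR (15.3% of all genes). Ccl22, a dendritic cell ligand of Ccr4, was at 16.1, 17.7 and 19.0 CPM in WT and at 25.0, 21.7 and 45.0 CPM in KO (0.79, SE 0.27, adjusted p = 0.244), and passed without the filter on low counts. Ccl17, which shares that receptor, was at 2.12 to 3.65 CPM in WT and 3.85 to 4.70 CPM in KO (0.50, adjusted p = 0.416). Ccl11, an eotaxin of fibroblasts, averaged 8.02 ± 1.29 CPM over the WT pools and 5.13 ± 1.43 CPM over the KO pools, with every KO pool below every WT pool, as for 10.1% of all genes (-0.64, SE 0.25, adjusted p = 0.28). The fibroblast markers are given above, and their part in this value was not tested. Ccl21a was listed at 0 in every pool.

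Of the receptors for the members, Ccr1 and Ccr2 were present in every pool, while Ccr3 and Ccr8 were low, as given below. Of 15 CC receptors and decoys, 14 were tested, 9 of them with positive log2 fold changes (median 0.18), and none passed in edgeR or limma-voom. DESeq2 called Ccr7 and Ccr6 higher, where it called 1.03% of all genes higher, and 3 of the 14 had an unadjusted p below 0.05 in edgeR, as did 15.3% of all genes. Ccr2, the receptor of Ccl2, Ccl7 and Ccl12, was at 139.8, 104 and 88.1 CPM in WT and at 112, 163 and 99.1 CPM in KO (0.18, SE 0.23, adjusted p = 0.765). Ccr1, bound by Ccl3, Ccl6 and Ccl9, was at 184, 86.0 and 92.7 CPM in WT and at 181, 117 and 134 CPM in KO (0.25, adjusted p = 0.745).

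Ccr3, the receptor of Ccl24, was at 1.42 to 3.96 CPM in WT and 1.05 to 1.18 CPM in KO (-1.12, SE 0.42, adjusted p = 0.269), and Ccr8, the receptor of mouse Ccl8, at 0.038 to 0.99 CPM over all pools (named for its ligand). The migration receptor Ccr7, found on mature dendritic cells and lymphocytes, was at 56.6, 50.0 and 42.6 CPM in WT and at 84.8, 92.1 and 115 CPM in KO (0.97, SE 0.16, adjusted p = 0.148). Ccr6 was at 2.89 to 5.12 CPM in WT and 6.41 to 8.99 CPM in KO (0.97, SE 0.26, adjusted p = 0.203). B cell markers were at a summed 1274 to 1466 CPM in WT and 1705 to 2510 CPM in KO (10 of 10 positive, none at 0). None was called by edgeR, and DESeq2 called 4 higher, against 1.03% of all genes. Every KO pool was above every WT pool for 7 of the 10, against 9.59% of all genes. In edgeR 8 had an unadjusted p below 0.05, against 15.3% of all genes. The part of the B cell markers in the result was not tested. The summed level of dendritic cell markers other than Ccr7 overlapped between groups, at 267 to 331 CPM in WT and 304 to 376 CPM in KO (5 of 9 positive, none at 0). Singly, Flt3 (10.7 to 19.8 CPM in WT, 20.7 to 23.3 CPM in KO) and Clec9a (2.05 to 3.04 and 3.57 to 4.58 CPM) did not overlap. Every KO pool was above every WT pool for both, as for 9.59% of all genes, and the others overlapped. The atypical receptor Ccrl2 was at 121 to 188 CPM in WT and 160.1 to 254 CPM in KO (0.46, adjusted p = 0.362). The decoy Ackr2 was at 4.73 to 8.52 CPM in WT and 4.43 to 5.30 CPM in KO (-0.43, adjusted p = 0.459). Ccr9, a thymocyte and T cell receptor, was at 113 CPM in WT replicate 2 and at 0.65 and 0.61 CPM in WT replicates 1 and 3. T cell markers were highest in the same pool.

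**Figure D5:**
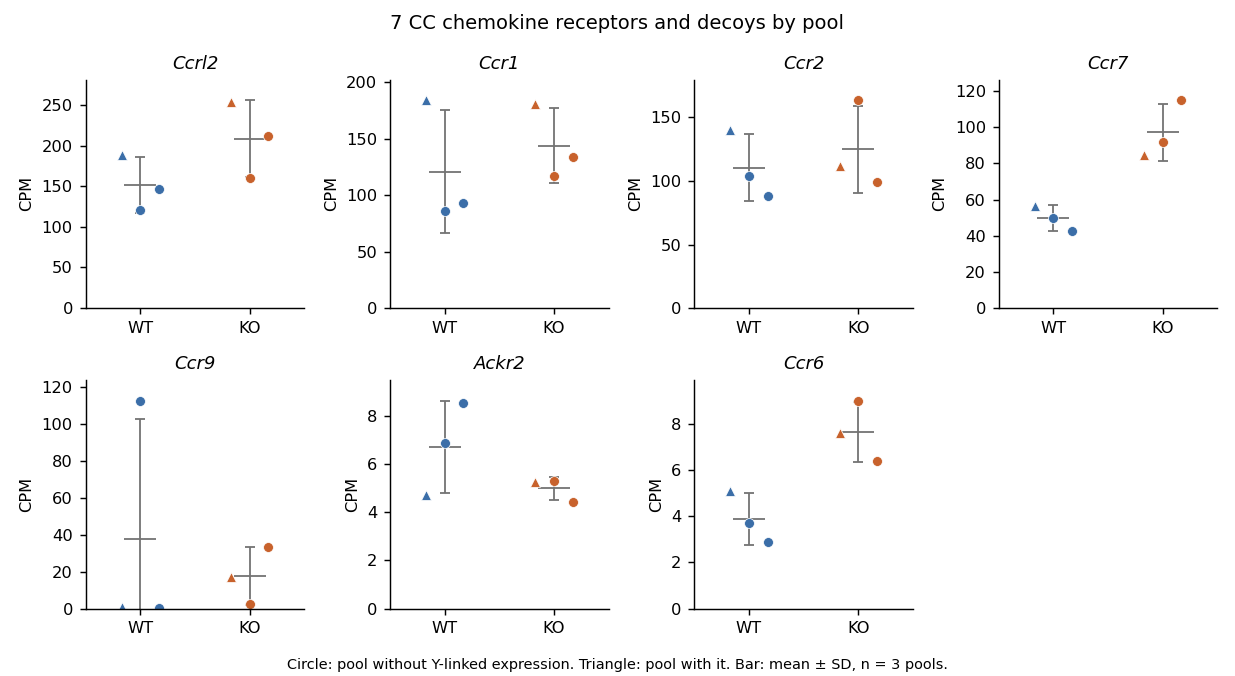
Level in CPM (vertical axis from 0) of 7 CC receptors and decoys with a mean of at least 5 CPM, in WT (blue) and KO (orange) pools, with mean and SD. For Ccr7 and Ccr6 the lowest KO pool (84.8 and 6.41 CPM) exceeded the highest WT pool (56.6 and 5.12 CPM), and the Ccr9 SD in WT exceeds its mean because 1 pool was at 113 CPM.

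Of 23 genes of NF-kB and toll-like signalling, none passed in edgeR, DESeq2 or limma-voom. In edgeR 0 had an unadjusted p below 0.05, against 15.3% of all genes. Log2 fold changes were positive for 18 of the 23 (median 0.14), against 50.8% of all genes. The cytokine Il6 was at 117, 109 and 133 CPM in WT and at 120, 69.6 and 71.9 CPM in KO (-0.46, SE 0.22, adjusted p = 0.363), and Nfkbie, an NF-kB inhibitor, had 0.36 (SE 0.22, adjusted p = 0.48). Of 20 immediate early genes, which tissue digestion also induces, none passed in the 3 tools (median 0.13). Again 0 had an unadjusted p below 0.05 in edgeR, against 15.3% of all genes. The summed level of the immediate early genes was high in every pool, at 29433 to 40765 CPM in WT and 34423 to 43734 CPM in KO. Of 12 genes of STAT6 signalling and alternative activation, none passed in the 3 tools, and 4 had an unadjusted p below 0.05 in edgeR, where 15.3% of all genes had one (median 0.31). Among them Stat6 was higher in every KO pool, at 214 to 264 CPM in WT and 276 to 314 CPM in KO (0.32, SE 0.13, adjusted p = 0.305). The lectins Mgl2 (0.50, SE 0.19, adjusted p = 0.28) and Clec10a (0.61, SE 0.25, adjusted p = 0.305) had WT replicate 1 within the KO range. Without WT replicate 1, Clec10a, Mgl2, Cd209f and Retnla passed as higher, where 2.33% of all genes did.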

How the data were processed

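For each of 6 libraries the authors deposited raw gene counts (Ensembl identifiers, whole numbers, no normalization, judged from the values). The submitters' processing notes list STAR, HTSeq, DESeq2 and GRCm38. No source used here gives their versions, the annotation release or whether counting used strand. Counters that name no gene were left out: 5.90% to 8.62% of reads lay outside genes, 1.49% to 1.72% were ambiguous and 7.58% to 8.67% aligned to several places. Symbols matched 55141 of 55487 identifiers, and positions and lengths come from GENCODE M21 (GRCm38). Counts were fitted with edgeR 4.0.16 in R 4.3.3 (filterByExpr minimum count 10, TMM, glmQLFit defaults, KO against WT, two-sided), which left 15707 genes. P-values were adjusted by Benjamini-Hochberg over all genes tested, with a threshold of 0.05. The SE is the log2 fold change over the square root of F.

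Groups follow the sample titles. The titles list bracketed numbers, none of them shared between pools. Y-linked transcripts and Xist show that WT replicate 1 and KO replicate 1 held other animals than the remaining pools of their groups. For the pools without Y-linked expression, nothing beyond the titles shows that those of a group are separate cohorts. The p-values reflect pool-to-pool spread, which may be technical in part. The members and lists were chosen with earlier results of these data known. All members are named, and of each other list up to 5 genes with the smallest p-values at a mean of at least 1 CPM, plus receptors at 5 CPM or more. One receptor that the rule names is not reported here, though the counts over the receptor list include it. Ccr8, Csf1r, Ccl21a and Epx are named outside that rule, with their values seen. Alternatives were DESeq2 1.42.0, limma-voom (limma 3.58.1), other scalings, filters and deviances, each library left out, a block for the replicate number and, added after seeing the data, Y-linked expression and division by macrophage markers. Tested on simulated data (KO against WT, 15707 genes), the fit called 37 of 100 genes changed 2-fold, 86 of 100 changed 4-fold and 9 unchanged genes. Coding sequences were aligned with Biopython 1.88.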

Additional observations from a re-analysis of the deposited data

How the results depend on the processing

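Ccl5, Ccl6, Ccl8, Ccl9, Ccl12 and Ccl24 had positive log2 fold changes in 16 of 16 planned fits and in both Y-linked fits. Fits that leave 2 pools in a group take the spread from both groups together. Values near 0 changed sign. Ccl2 was -5.4e-05 with DESeq2, -8.6e-05 with RLE scaling, and -0.02 by library size only and at a mean CPM of at least 5. It ranged from -0.20 to 0.26 on leaving out 1 library. Ccl3 ranged from -0.28 to 0.26 on leaving out 1 library and was 0.0015 in the 4 pools without Y-linked expression. Ccl4 was -0.0065 with limma-voom, -0.01 by library size only, -0.02 with Y-linked expression as a covariate and -0.19 in the 4 pools, and ranged from -0.36 to 0.23 on leaving out 1 library. Ccl7 was 0.02 with limma-voom and 0.28 in the 4 pools, and ranged from -0.23 to 0.25. Relative to resident macrophage markers, Ccl2 was -0.42, Ccl4 -0.47, Ccl5 -0.09, Ccl9 -0.01 and Ccl12 -0.12. The cause was not tested.

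The number of chemokines called was 0 in edgeR with its filter, 1 without the filter, 2 in the 4 pools, and 0 to 4 on leaving out 1 library (4 without WT replicate 1). Other CC chemokines called were 1 without the filter. CC receptors called were 2 with DESeq2, 2 without the filter, 2 in the 4 pools and 0 to 3 on leaving out 1 library. NF-kB and toll-like genes called were 1 in the 4 pools (Il6, lower). STAT6 and alternative activation genes called were 3 in the 4 pools and 0 to 4 on leaving out 1 library. Over all genes the count was 2 in edgeR with its filter, 785 with DESeq2, 1 with limma-voom, 782 without the filter, 407 in the 4 pools and 1 to 1338 on leaving out 1 library.

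With the replicate number as a block, Ccl4 was -0.01 and Ccl7 0.0042, 3 genes were called in all and none of the chemokines. Same-numbered pools did not deviate together (correlations of 0.0968, -0.16 and 0.00601), so the numbers were not taken to pair them.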
